A study of Mus musculus with 40 samples.

Results

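CpG methylation was measured in the liver of 40 male C57BL/6 mice (C57BL/6J by the study's methods) at 9 weeks of age, and the sites described here are the 504 CpG cytosines that were read most deeply outside a ribosomal DNA segment of chromosome 17. A site was taken when at least 30 reads covered it in at least 36 of the 40 mice, and the interval from base 39979000 to base 39986000 of chromosome 17 was left out. The table listed 400298 cytosines, of which 262317 had at least 10 reads in at least 36 mice and could be tested, so the 504 sites are a small and extreme subset chosen by read depth. In the excluded interval another 392 cytosines met the same depth rule. Depth chose the sites and is therefore only described, whereas methylation level played no part in the choice.

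The 4 groups of 10 mice each were offspring of dams on a low fat (LF) or a high fat (HF) diet that was given before and through pregnancy and until weaning, and were themselves fed LF or HF after weaning. Groups are written here with the diet of the dam first and that of the offspring last: LF/LF, LF/HF, HF/LF and HF/HF. In each mouse the DNA was from whole liver, a mixture of hepatocytes and other cells. The labels name no litter or cage, so that the p-values given here measure the spread between these mice, some of which may be littermates. By the study's methods the males of each cage were divided between the post-weaning diets. Littermates therefore share a maternal diet, and p-values for maternal diet treat mice, not dams, as the unit. Reduced representation bisulfite sequencing cuts DNA with MspI at CCGG, keeps short fragments and reads 50 bases from a fragment end, and bisulfite turns unmethylated cytosines into thymines in the read. Methylation level is the percent of reads at a cytosine that kept the C.

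Methylation of CpGs in mammals is usually dense over repeats and gene bodies and sparse in CpG islands at promoters, and mitochondrial DNA is generally reported to hold little or none. A sequence present in many places of a genome, such as a satellite, a transposable element or a ribosomal gene, gives many fragments, and reads from all of its copies can be placed on the few copies that a reference assembly holds. For such a site the methylation level is an average over copies. How much of each site's depth came from copies placed together was not tested.

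The sequences below carry the main patterns. Each is the first 50 bases of a read that begins at an MspI site, taken from the mouse reference of build mm9 (NCBIM37), written 5′ to 3′ on the strand that was read, with the CpGs that belong to the 504 sites in capitals. The most deeply read site of the genome, a mitochondrial read and its nuclear copy are given together.

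Most reads of all, chr2:98506612-98506661, minus strand: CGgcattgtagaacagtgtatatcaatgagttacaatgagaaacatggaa
Mitochondrial mt-Co1 read, chrM:6275-6324, plus strand: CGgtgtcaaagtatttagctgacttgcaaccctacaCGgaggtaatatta
Nuclear copy near Gm13340, chr2:22444171-22444220, minus strand: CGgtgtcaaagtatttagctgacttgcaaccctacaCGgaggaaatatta

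The next reads come from loci that combined very many reads with low methylation, described further on because they held most sites at an unadjusted p below 0.05 in 2 of the 4 diet comparisons, although none passed an FDR of 5%. The loci labelled as beside Zc3h7a and Cdk8 lie within the annotated bounds of these genes.

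Chromosome 11 locus, chr11:108873184-108873233, plus strand: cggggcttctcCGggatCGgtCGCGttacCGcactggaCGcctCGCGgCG
Locus beside Zc3h7a, chr16:11144135-11144184, plus strand: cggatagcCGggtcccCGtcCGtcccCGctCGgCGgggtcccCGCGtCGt
Locus beside Cdk8, chr5:147072588-147072637, plus strand: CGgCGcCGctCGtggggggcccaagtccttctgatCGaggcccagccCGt

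Reads from abundant repeat families are shown because CpGs late in the read were nearly unmethylated while the first CpG was highly methylated.

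Chromosome 10 repeat, chr10:71091513-71091562, plus strand: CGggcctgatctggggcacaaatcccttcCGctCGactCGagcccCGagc
Chromosome 13 repeat, chr13:87325336-87325385, plus strand: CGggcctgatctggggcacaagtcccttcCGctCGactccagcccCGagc
Chromosome 2 repeat, chr2:39388445-39388494, plus strand: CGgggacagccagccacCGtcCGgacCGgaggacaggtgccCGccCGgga
Chromosome X repeat, chrX:137432104-137432153, minus strand: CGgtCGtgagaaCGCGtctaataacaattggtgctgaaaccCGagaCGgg

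A stretch in the gene Mid1 was read from both strands with different results. The promoter of Hjurp serves as a low-methylated example with no other copy found in the reference.

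Mid1 plus-strand read, chrX:166435470-166435519, plus strand: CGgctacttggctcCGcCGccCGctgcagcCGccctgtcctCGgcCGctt
Mid1 minus-strand read, chrX:166435491-166435540, minus strand: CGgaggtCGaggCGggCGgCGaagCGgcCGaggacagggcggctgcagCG
Hjurp promoter read, chr1:90173890-90173939, plus strand: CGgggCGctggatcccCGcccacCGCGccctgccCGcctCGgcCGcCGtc

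The depth behind the values was large. Summed over all listed cytosines, the 40 mice had between 2969907 and 23345592 methylation calls (a read counts once at each CpG it covers), with a median of 9245709.5, and the 504 sites took between 4.57% and 7.47% of them. The median site had 54.5 to 257.5 reads, depending on the mouse, against 12 to 54 for all testable cytosines. Sites were covered by a median of 40 to 214326 reads per mouse, with a median over sites of 109.75. Just inside the limit, the 70 cytosines with 30 reads in exactly 36 mice had a median methylation of 28.0% (range 0.125% to 98.3%), and just outside it, the 37 with 30 reads in 35 mice had a median of 88.2% (range 0.0714% to 98.0%). No mouse stood out as a copy of another, as at most 1.79% of the sites had identical counts in any of the 780 pairs of mice.

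The sites were clustered. With sites no more than 1000 bp apart joined, the 504 cytosines formed 93 loci, of which 15 held a single site. The 471 sites with an MspI site within a read length lay in 174 distinct reads. For 1 site, on unplaced sequence (Un_random), no reference sequence was examined. Chromosome X held 107 of the 504, chromosome 11 held 68, chromosome 12 held 52 and chromosome 1 held 36, and 13 were mitochondrial. By the annotation, 179 lay within 1000 bp upstream or 500 bp downstream of a transcript start, 173 were intergenic, 95 intronic, 32 in untranslated regions and 22 in coding exons. They had 82 genes within 1000 bp, 47 of them protein coding and 30 with provisional Gm or Rik names. None of these was among 23 imprinted genes or 13 cholesterol and lipid genes on the lists used here, and none was annotated as a ribosomal RNA gene.

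Methylation levels covered nearly the whole range. Mean methylation over mice ran from 0.0067% to 98.3% with a median of 65.3%. Only 46 sites (9.13%) were below 5%, a level held by 44.2% of the other tested cytosines. Intermediate levels between 20% and 80% were found at 185 sites (36.7%) against 15.1% of the others, levels of 5% to 20% at 99 sites (19.6%) against 12.9%, and levels of 80% or more at 174 sites (34.5%) against 27.7%. Sites of 1 locus share reads, so these shares are descriptions of this set.

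**Figure D1:**
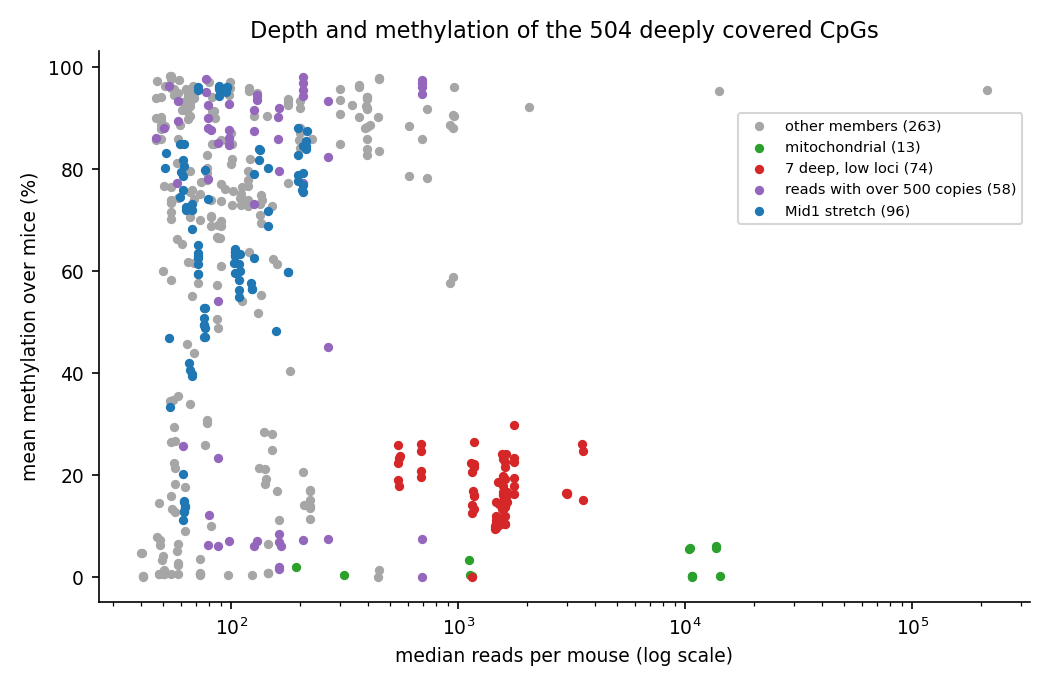
Each point is 1 of the 504 cytosines, with its median reads per mouse on the horizontal axis (log scale) and its mean methylation over mice in percent on the vertical axis. Colours mark the 13 mitochondrial sites near 0%, the 74 sites of 7 deep and low-methylated loci, the 58 sites in reads with over 500 copies and the 96 sites of the Mid1 stretch, and the most deeply read site lies alone at 214326 reads and 95.6%.

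How often the same sequence occurs elsewhere in the reference was counted by aligning each 50-base read to the genome, a place counting as a copy at 80% identity or more over 90% of the read. No other copy was found for 168 sites in 57 reads, with a median methylation of 69.9% and a median of 95.25 reads. From 1 to 20 copies were found for 208 sites (median methylation 48.8%, 133.5 reads), 21 to 500 for 37 sites (74%, 72.5 reads), and more than 500 for 58 sites (86.0%, 126.5 reads). A further 32 sites (6.36%) had no MspI site within a read length, against 0.0267% of the tested cytosines on the same chromosomes, and among these were sites of the chromosome 2 satellite-like stretch and of the chromosome 11 locus printed above.

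The most deeply read cytosine, chr2:98506661, had 59639 to 455933 reads in a mouse, and its methylation was close to 95% in every group. It lies between genes in a 4.61 kb stretch of chromosome 2, from base 98502714 to base 98507324, that held 10 sites, of which 3 lay at the start of the predicted gene Gm10800 and 2 at that of Gm10801. The printed read matched 40 other places in the reference. From general knowledge it resembles the minor satellite of mouse centromeres, but no satellite annotation was used here to check that. Methylation was lowest 94.8%, median 95.5% and highest 96.3% in LF/LF mice, 94.8%, 95.6% and 96.4% in LF/HF mice, 95.4%, 95.8% and 96.6% in HF/LF mice, and 94.5%, 95.3% and 96.3% in HF/HF mice. All 4 groups overlapped. Differences between groups ranged from -0.55 ± 0.23 percentage points (SE, HF/HF minus HF/LF) to 0.31 ± 0.19 (HF/LF minus LF/LF), and none passed an FDR of 5%. At this depth sampling of reads would leave an SD of 0.05 points between mice, and the observed SD within groups was 0.50, which is 10.1 times larger and the highest such ratio of all sites. The sampling SD falls as reads rise, so a high ratio at the deepest site follows in part from its depth. In points its SD was small, beside a median of 4.10 over all sites. A neighbour in an intron of Gm10801, chr2:98502952, had 14093.5 reads and 95.3% methylation.

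Mitochondrial DNA held 13 sites in the genes mt-Nd1, a subunit of respiratory complex I, and mt-Co1, a subunit of complex IV, with 193 to 14183.5 median reads. These sites fell into 2 classes by their place in the read. The 6 sites at the first position of a read, which is the MspI cut itself, had 2.01% to 6.12% methylation, and the other 7, of which 1 has no MspI site within a read length, had 0.15% to 0.45%. Cytosine chrM:3344, the inner site with the most reads, had 0.145%, 0.201% and 0.292% (lowest, median and highest) in LF/LF mice, 0.139%, 0.183% and 0.237% in LF/HF mice, 0.111%, 0.183% and 0.269% in HF/LF mice and 0.120%, 0.156% and 0.230% in HF/HF mice. The groups overlapped fully around these very low values. By contrast chrM:6390, at the first position of its read, had 4.57% to 6.61% in all groups together.

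A step between the first CpG and the inner CpGs of a read was also present in other reads of the table, except in the most methylated ones. In 12049 reads whose inner CpGs averaged below 1%, the first CpG had a median of 5.28% (quartiles 4.43% and 6.19%) where the inner CpGs had 0.348%. With inner CpGs between 1% and 5% the values were 6.52% and 2.05% in 5231 reads, and with inner CpGs between 80% and 95% they were 91.3% and 89.7%. In the 5157 reads with inner CpGs above 95% the order turned, with 95.9% at the first CpG and 96.6% at the inner CpGs. Of the 504 sites, 116 were at the first position. Of the 6 mitochondrial first-position values, 4 lay between the quartiles of 4.43% and 6.19% and 2 below them, and why first positions read higher in all but the most methylated reads was not tested.

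A nuclear copy of the mt-Co1 read on chromosome 2, near Gm13340 and Myo3a, was also among the deep sites. The printed pair differs by a single base, T43A, with positions counted from 1 at the 5′ end of the read and the mitochondrial base first. The nuclear copy had fewer reads (160.5 against 10623.5 for the mitochondrial read) and higher methylation: 17% at the first CpG and 11.2% at the inner CpG, against 5.86% and 0.37%. Reads with that base are placed by 1 letter of 50, and how many of the nuclear reads were mitochondrial in origin was not tested.

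Long runs of sites marked a few regions of the genome. The largest was in Mid1, which encodes a ubiquitin ligase that binds microtubules and spans the boundary of the pseudoautosomal region in C57BL/6 mice, where X and Y chromosomes still recombine. Between bases 166416828 and 166436039 of chromosome X it held 96 sites in 9 loci over 19.2 kb, with 51 to 214.5 reads. Of these, 64 had no other copy in the reference. Methylation in the stretch ran from 11.3% to 96.4%, with 6 sites near the start of Gm17379 at 94.5% to 96.4%, 6 sites at 33.3% to 47.0% near Gm15726, 4 at the annotated start of a Mid1 transcript at 74.2% to 79.9%, and 27 sites between bases 166428120 and 166428657 at 68.3% to 88.1%.

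**Figure D2:**
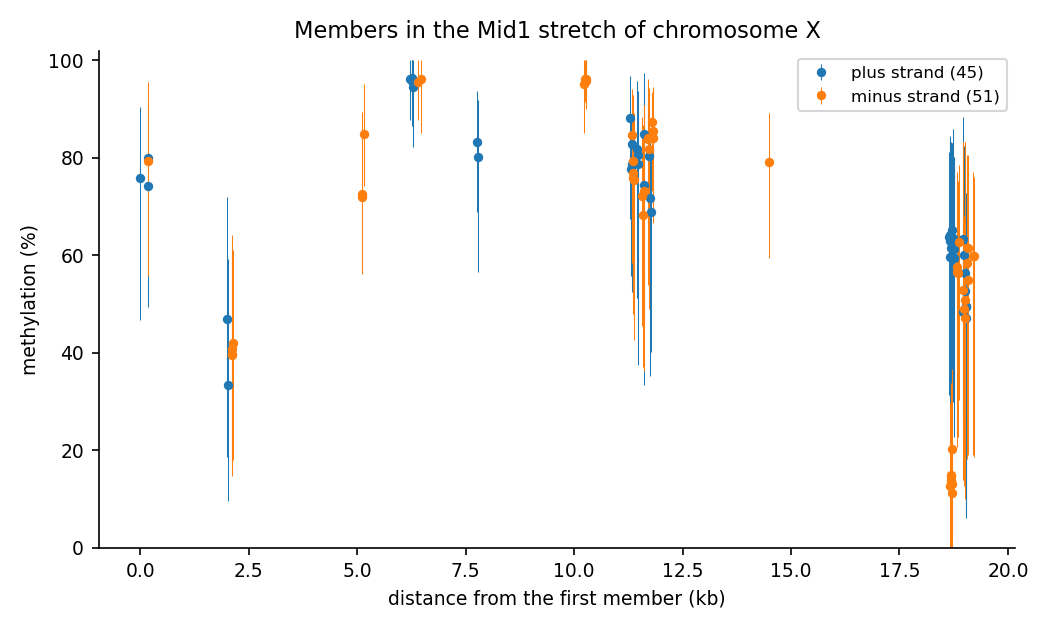
Methylation (%) of the 96 Mid1 sites against distance from the first of them in kb, with points for the mean over mice and lines from the lowest to the highest mouse. Most sites vary widely between mice, and a group of minus-strand sites near the far end lies at 11.3% to 20.2%, below the plus-strand sites beside it.

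The last Mid1 locus, chrX:166435470-166436039, held 43 sites and differed widely between mice. Pooled over its CpGs, methylation was lowest 45.9%, median 57.8% and highest 63.5% in LF/LF mice, 27.4%, 55.9% and 70.1% in LF/HF mice, 39.3%, 48.1% and 64.7% in HF/LF mice and 21.5%, 53.3% and 68.4% in HF/HF mice. The groups overlapped, and both groups fed HF held the lowest mice. Within it, the CpGs at bases 166435491, 166435511, 166435515 and 166435539 were read on both strands. The minus-strand read printed above holds all 4 and the printed plus-strand read the first 3 of them, while the plus-strand values at base 166435539 come from a read that starts there, with 71 reads against 103 to 103.5. On the plus strand they had 59.7% to 65.1% and on the minus strand 12.8% to 20.2%, and the plus strand was higher in 40 of 40 mice at each of the 4. Across the deep sites, 8 of 43 CpGs read on both strands (18.6%) differed by more than 10 points, against 28 of 9544 others (0.293%). Median absolute differences were 3.59 and 0.595 points. Most of the 8 CpGs over 10 points lie in this last Mid1 locus: the 4 just named and those at bases 166435803 and 166435814. The others are chr11:108873242 and chr12:20240005. Sites of a locus share reads, so the 18.6% mainly describes this locus.

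Other runs were smaller. On chromosome 11, between Pisd-ps1 and Sfi1, which encodes a centrin-binding protein of the centrosome, 41 sites in 4 loci over 66.4 kb had 144 to 943.5 reads. The largest of these loci, chr11:3093351-3093631 at the start of Sfi1 and near Drg1, held 28 sites with no other copy, and its pooled methylation was between 78.2% and 87.5% in all 40 mice. A smaller locus at the start of another Sfi1 transcript held 4 sites at 77.3% to 93.8%. On chromosome 12, 39 sites between bases 20236119 and 20240174 had 49.0% to 84.9% and none was free of copies, and 32 of them lay between bases 20239164 and 20240174. On chromosome 1, from Heatr7b1 to Hjurp, 31 sites in 6 loci over 59.2 kb had 0.379% to 94.9%. In that run the shared promoter region of Hjurp, which loads the centromeric histone CENP-A, and Trpm8 held 19 sites with no other copy at 0.38% to 6.50%, and its pooled methylation was 0.723% to 3.0% over the mice. Low levels were also found at the promoters of Entpd4, a nucleoside phosphatase (5 sites, 0.12% to 4.70%), and of the class Ib major histocompatibility genes H2-Q6 (2 sites, 2.45% and 6.52%) and H2-Q7 (3 sites, 0.64% to 5.14%). Sites at the start of Loxl2, a lysyl oxidase-like enzyme that cross-links collagen, had intermediate to low values of 6.36% to 14.6% (3 sites). High levels were found at the starts of 3110070M22Rik (9 sites, 72.8% to 82.8%) and Gm7120 (3 sites, 94.5% to 96%). The H2-Q6 and H2-Q7 reads had 13 and 11 other places in the reference at 80% identity, of which 0 and 2 differed by at most 2 bases.

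Some CpGs were nearly unmethylated while another site in the same read was above 80%. There were 16 such sites below 15% in 12 reads, and 11 of them lay in the last 10 bases of the read. Among sites of highly methylated reads, 11 of 40 (27.5%) at read positions 41 to 50 were below 15%, against 9 of 8246 (0.109%) of the other tested cytosines, and 5 of 141 (3.55%) at positions 1 to 40 against 9 of 50719 (0.0177%). Of the 11 late sites, 10 follow the letters CC. The reads from repeat families printed above belong to this class. In the chromosome 10 read, which has 9285 other places, the first CpG was at 92.7% and the last, at position 46, at 6.26%, with mice from 0% to 12.2%. Its counterpart on chromosome 13 had 91.6% and 6.24%. In the printed chromosome 2 repeat 4 of the 6 CpGs were low, at 1.69%, 2.12%, 8.48% and 6.90% (positions 22, 27, 42 and 46), and in the chromosome X repeat the last 2 were, at 7.61% and 0.0918%. Of 21 reads with over 500 copies, 9 held such a low site. In these 9, at least 64.1% of the aligned copies kept the CpG in question. All 11 late sites lie in these 9 reads, which are not independent sequences. The reads on chromosomes 6, 10, 12 and 13 and that at chr2:54749121 are near copies of the same sequence or its reverse complement. All of them were low at position 46. The reads on chromosomes 5 and X are near copies of each other, both low at position 42. The 27.5% therefore mainly describes a few repeat sequences. The 5 low sites before position 41 differed in how many copies kept the CpG. The site chrX:73843921, at position 21, had 0.152% beside 90.2%, with 1 of 7 copies keeping the CpG, and chr11:3050784, at position 30, had 1.40% beside 97.9%, with 0 of 1. At chr12:5063116, at position 32, the values were 0.637% beside 98.3%, and 97 of 127 copies kept the CpG. The early sites of the chromosome 2 repeat, at positions 22 and 27, were kept by 91.3% and 68.8% of the copies. What made these sites low was not tested.

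**Figure D3:**
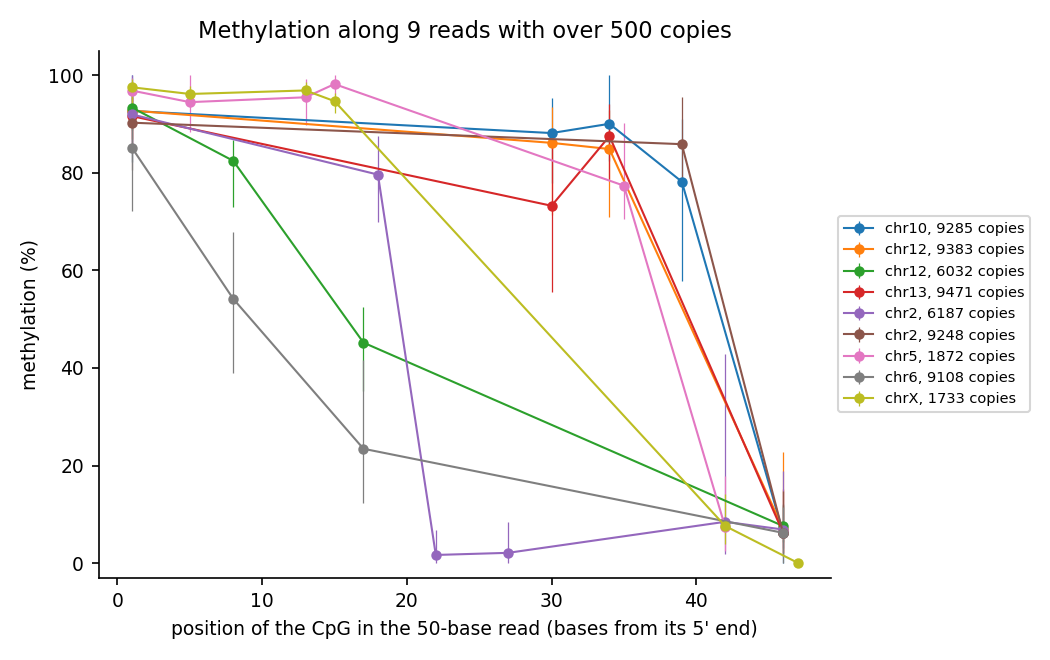
Methylation (%) against the position of the CpG in the 50-base read for 9 reads with over 500 copies, with points for the mean over 40 mice and lines from the lowest to the highest mouse. In all 9 reads the first CpG is at 85.1% or more and the last below 15%. Most of these reads are near copies of each other or of each other's reverse complement.

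A set of 7 nuclear loci combined a median above 500 reads with levels below 30% at every site. They were picked out after their values had been seen and are described without a test of the set. They held 74 sites, of which 26 were on chromosome 11 (108873013 to 108873298). In Cdk8, a kinase of the Mediator complex, on chromosome 5 there were 15 (147072588 to 147072871). Chromosome 16 held 11 in Zc3h7a, at the annotated mmu-mir-689-2 (11144143 to 11144190), and 7 in Filip1l (57391705 to 57391749). The others were 6 on chromosome 18, 5 on chromosome 17 (36368237 to 36368273) and 4 on chromosome 8 (3754410 to 3754452). Median reads were 540 to 3527, and apart from 1 site at 0.0067% the sites had 9.49% to 29.8%. From general knowledge the letters of the chromosome 11 and Zc3h7a reads are those of 28S ribosomal RNA, whose genes are repeated many times in the genome, but the annotation names none of these loci as ribosomal and no ribosomal sequence was matched here.

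These loci varied between mice well beyond the sampling of reads. The SD within groups was more than 2 times the sampling SD at 71 of the 74 sites and at 65 of the other 430, with median ratios of 2.90 and 1.28. At chr11:108873013 the SDs were 3.39 and 0.62 points. The sampling SD falls as reads rise and these loci were picked for depth, so their higher ratios follow in part from depth. In points, the SD within groups was 3.39 at that site and 4.16 at chr18:68851808, beside a median of 4.10 over all deep sites. Pooled over the 7 loci, methylation was lowest 9.29%, median 14.7% and highest 18.2% in LF/LF mice, 14.2%, 18.2% and 20.8% in LF/HF mice, 12.9%, 17.9% and 22.4% in HF/LF mice, and 12.1%, 17.9% and 23.4% in HF/HF mice. As means these were 14.9% ± 2.75, 18% ± 2.12, 17.6% ± 2.78 and 17.8% ± 3.18 (SD, n = 10). LF/LF mice, both born from LF fed dams and fed LF, had the lowest mean, and all 4 groups overlapped.

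**Figure D4:**
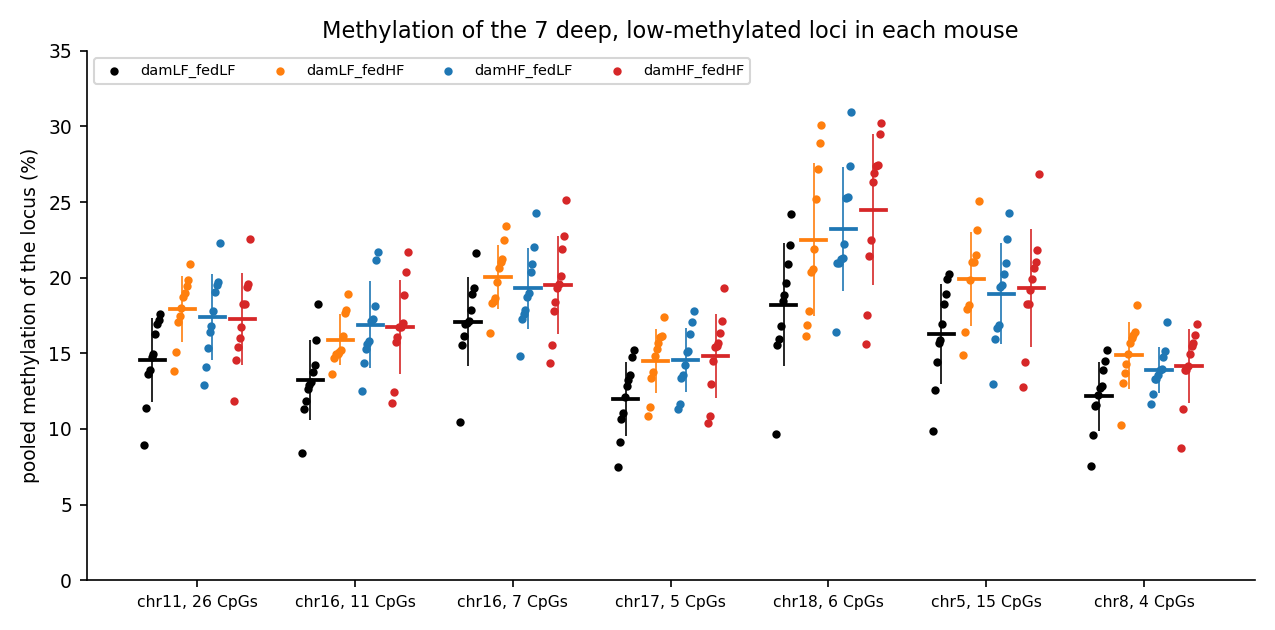
Pooled methylation (%) of the 7 loci in each mouse, by group (damLF_fedLF is LF/LF and so on), with horizontal bars for the mean and vertical lines for the SD of 10 mice. In each locus the LF/LF mean is the lowest of the 4 groups and the points of all groups overlap.

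Whether the diet of the dam or of the offspring changed methylation at the deep sites was tested at each cytosine by Student's t-test (two-tailed), with the false discovery rate (FDR) computed over all cytosines tested. No site passed an FDR of 5% in any of the 4 comparisons, and the smallest FDR of a site was 0.822 for maternal diet in offspring fed HF, 0.818 for maternal diet in offspring fed LF, 0.808 for post-weaning diet in offspring of LF fed dams and 0.820 for post-weaning diet in offspring of HF fed dams. Over all tested cytosines the same test called 0, 0, 2 (0.000840%) and 3 (0.00124%). A linear model with both diets and their interaction gave no interaction at an FDR of 5% (smallest 0.868). At an unadjusted p below 0.05 it gave 35 of 504 sites, against 4.18% of all cytosines, 13 of them in the 7 deep and low loci.

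Without adjustment the 4 comparisons differed. For maternal diet in offspring fed HF, 17 of 504 sites (3.37%) had p below 0.05, where 3.72% of all tested cytosines did, 4 of them higher and 13 lower in HF/HF than in LF/HF mice (1.52% and 2.19% of all). In offspring fed LF, 64 sites (12.7%) did, against 3.99% of all, 50 higher and 14 lower in HF/LF than in LF/LF mice (2.39% and 1.60% of all). For post-weaning diet in offspring of LF fed dams there were 86 sites (17.1%) against 4.03%, 76 higher and 10 lower in LF/HF than in LF/LF mice (2.22% and 1.81% of all). In offspring of HF fed dams there were 25 of 503 sites (4.97%) against 4.06%, 4 higher and 21 lower in HF/HF than in HF/LF mice (1.46% and 2.60% of all). Median differences over the sites were -0.59, 0.18, 0.47 and -0.21 points, beside -0.15, 0.16, 0.08 and -0.21 over all tested cytosines. The comparisons with the largest counts share the LF/LF mice.

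In the comparisons with LF/LF mice, the 7 deep and low loci held most of those counts. Of their 74 sites, 40 had p below 0.05 for maternal diet in offspring fed LF and 62 for post-weaning diet in offspring of LF fed dams, all of them with higher methylation in the HF arm, with median differences of 3.12 and 3.42 points. In the comparisons without LF/LF mice, 0 of 74 did by Student's t-test or any of the alternative tests, with median differences of -0.61 and -0.02. The excluded chromosome 17 segment, read from the same mice and therefore not independent of them, had like counts: 162 of 392 (41.3%) and 281 of 392 (71.7%), all higher in the HF arm, in the comparisons with LF/LF mice, and 1 and 3 of 392 for maternal diet in offspring fed HF and post-weaning diet in offspring of HF fed dams. The pattern is thus not particular to these loci. Among the deep sites outside the 7 loci the counts were 17 of 430 (3.95%), 24 (5.58%), 24 (5.58%) and 25 of 429 (5.83%). Calls depended on the test: limma, on the log2 of methylated over unmethylated reads, gave 5 and 8 of the 74 in place of 40 and 62, while a quasi-binomial model on the counts gave 49 and 68. Leaving out 1 mouse moved the 40 calls to between 25 (without HF/LF replicate 10) and 64 (without HF/LF replicate 8), with 26 without LF/LF replicate 4 or 5, and the 62 calls to between 48 and 68.

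Several measures can be set beside this pattern. LF/LF mice had a median of 7682335 calls, against 8754226.5 in LF/HF, 9922782.5 in HF/LF and 9869666.5 in HF/HF mice, and with the log10 of total reads as a covariate the counts were 71 and 68 of 74. The share of calls at the 7 loci had medians of 1.155% in LF/LF, 1.305% in LF/HF, 1.271% in HF/LF and 1.391% in HF/HF mice. Inner mitochondrial methylation, with medians of 0.254%, 0.236%, 0.251% and 0.226% in the same order, and the mean of the other nuclear deep sites, with medians of 63.5%, 63.4%, 62.8% and 62.7%, were not lowest in LF/LF mice. In bulk liver, a change in the cells that make up the tissue and a change within cells cannot be told apart.

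**Figure D5:**
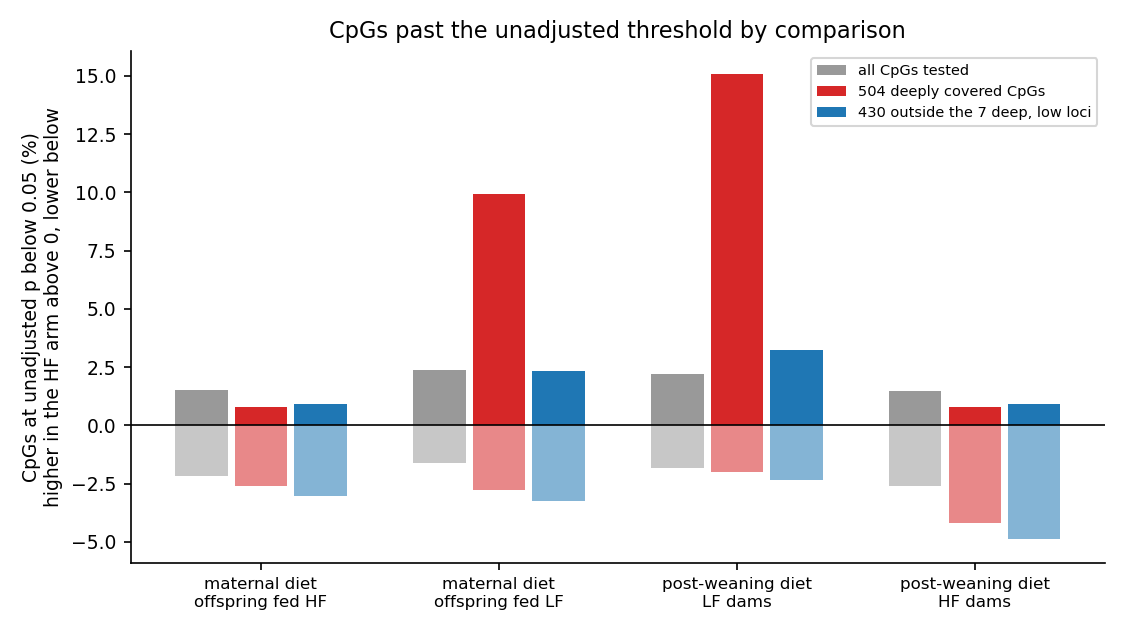
Percent of cytosines with unadjusted p below 0.05 in each of the 4 comparisons, above 0 where higher and below 0 where lower in the HF arm. Grey bars are all tested cytosines, red bars the 504 deep sites and blue bars the sites outside the 7 deep and low loci (430 sites). In the 2 middle comparisons the red bar for higher sites, at 9.92% and 15.1%, stands well above the blue bar.

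Named sites illustrate the range. In offspring of LF fed dams the smallest p was at chr11:108873230, in the chromosome 11 locus with 1458.5 reads. Its methylation was 6.60%, 10.2% and 13.4% (lowest, median and highest) in LF/LF mice and 10.9%, 13.5% and 14.6% in LF/HF mice, so that the groups overlapped. It differed by 3.06 ± 0.75 points (SE), with an exact permutation p of 0.000898 and an FDR of 0.808 by Student's t-test. The intergenic chr12:20237581 followed, at 67.7%, 70.9% and 77.6% in LF/LF and 72.6%, 76.4% and 84.5% in LF/HF mice. That is a difference of 6.01 ± 1.67 points. The third locus was chr17:36368264, another deep and low site, where LF/HF mice were higher by 3.66 ± 1.08 points. The widest differences in this comparison were a rise of 8.83 ± 2.72 points at chr7:12599032 (22.4% median in LF/LF, 30.5% in LF/HF) and a difference of -9.15 ± 4.71 points at chrX:166418936 in an intron of Mid1. Neither passed an FDR of 5%.

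For maternal diet in offspring fed LF, the smallest p was at the intergenic chr2:40440394. It had 92.3%, 95.7% and 97.7% in LF/LF mice and 90.6%, 92.7% and 95.4% in HF/LF mice, a difference of -2.93 ± 0.71 points with an exact permutation p of 0.00109 and an FDR of 0.818 by Student's t-test. This was the reverse direction to the deep and low loci. Among those, the chromosome 18 site at base 68851808 had 13.1%, 20.9% and 25.7% in LF/LF and 21.3%, 27.0% and 35.2% in HF/LF mice, a difference of 6.42 ± 1.64 points. At chr10:71091542, in the printed chromosome 10 repeat, HF/LF mice were higher by 5.02 ± 1.30 points. The widest differences were 9.28 ± 4.68 at chr2:39388486, in the printed chromosome 2 repeat, with 9 LF/LF mice having a value, and -11.80 ± 4.85 at the Mid1 site chrX:166418936, where LF/LF mice had 31.9%, 48.4% and 64.1% and HF/LF mice 21.6%, 35.1% and 56.1%. Values of both groups overlapped at each of these sites.

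For maternal diet in offspring fed HF, the smallest p was at the first CpG of the nuclear mt-Co1 copy, chr2:22444220. It had 14.0%, 19.4% and 28.3% in LF/HF mice and 7.27%, 13.5% and 27.9% in HF/HF mice, a difference of -5.94 ± 2.25 points with an exact permutation p of 0.0174. Next were the intergenic chr12:20240095 (-6.39 ± 2.44 points) and chr4:10064348 (-4.28 ± 1.70 points), both lower in HF/HF mice. The widest differences were 7.15 ± 3.86 points at chr5:26334238, in an exon of Gm5067, and -9.46 ± 3.93 at chrX:166435516 in Mid1, one of the minus-strand CpGs of the printed read. The 4 Mid1 sites with p below 0.05 here, all lower in HF/HF mice, were 4 of 96 tested in the stretch, beside the 3.72% of all cytosines. In the same stretch 12 of 96 (2 higher and 10 lower) had p below 0.05 for maternal diet in offspring fed LF, beside 3.99%, 1 for post-weaning diet in offspring of LF fed dams, beside 4.03%, and 3 in offspring of HF fed dams, beside 4.06%.

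For post-weaning diet in offspring of HF fed dams, the smallest p was at chr11:3050764, in Sfi1, with 97.7%, 98.4% and 99.3% in HF/LF mice and 95.9%, 97.3% and 98.3% in HF/HF mice. The difference was -1.02 ± 0.29 points, with an exact permutation p of 0.00219 and an FDR of 0.820 by Student's t-test. The chr4:88022252 site, in an intron of BC057079, had a difference of -6.42 ± 2.07. The widest differences were at chr2:39388486, at -11.81 ± 4.05 points, where HF/LF mice ranged from 3.57% to 42.9% and HF/HF mice from 1.91% to 9.72%, and at chrX:166435792 in Mid1, at 10.68 ± 4.41 points. HF/LF mice are shared by this comparison and that of maternal diet in offspring fed LF, in which the same chromosome 2 site was the widest rise.

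Spread between mice of the same group exceeded the sampling of reads at many sites. The median SD within groups was 4.10 points, where sampling of the reads alone would give 2.96, and the ratio of the 2 had a median of 1.35 and passed 2 at 136 sites. Reads were not marked as single molecules, so the sampling SD covers counting error only. The sampling SD also falls as reads rise, so ranking sites by the ratio favours those with most reads. Among sites between 5% and 95% methylation, the largest ratio after chr11:108873013 was at chr11:3093432 in Sfi1 (5.65 against 1.10 points). There 1 HF/HF mouse had 54.4% and the next lowest 86.3%. The loci that followed were chr5:147072764 in Cdk8 (ratio 4.72), chr16:11144188 in Zc3h7a (3.5), and chrX:166436024 in Mid1 (12.17 against 3.71 points).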

How the data were processed

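Liver DNA of 40 mice was digested with MspI, and size-selected fragments were bisulfite converted and sequenced as single-end 50-base reads. Per the submitters' processing notes the authors used Bismark and build mm9. The deposited table holds counts per CpG cytosine and mouse, methylated reads and total reads, with totals under 10 missing, and methylated counts were masked there. The members and lists were chosen with earlier results of these data known. Cytosines with 10 reads in 36 of 40 mice were compared on percent methylation between groups of 10 mice by Student's t-test (scipy 1.17.1), with Benjamini-Hochberg FDR over all those cytosines with any spread between the mice compared. Exact permutation p-values enumerate all 184756 divisions of 10 and 10 mice. Alternatives were the Wilcoxon and Welch tests, a quasi-binomial model, limma 3.58.1 (0.5 added to counts), minimums of 20 or 30 reads, log10 total reads as covariate, other depth limits and leaving out mice. Scripts were tested on simulated data. All 399856 listed cytosines on reference chromosomes of NCBIM37 were CpGs. Copies were found with blastn 2.17.0 (word size 11, E-value 0.001). Sites named: per comparison the 3 smallest p from separate loci and the widest rise and fall, the 5 with most reads, the 5 with the largest ratio of observed to sampling SD between 5% and 95% methylation, the mitochondrial sites, the 8 loci with most sites and promoter loci of protein coding genes with 2 sites or more. Deep and low loci, strand pairs and reads with a departing CpG were picked after their values were seen.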

Additional observations from a re-analysis of the deposited data

Results flagged for a closer look

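At 11 of 104 combinations of a named site and a group, 1 mouse lay apart from the other mice of its group by Dixon's criterion, of which chance flags about 1 in 20. The 11 values are from 11 different sites. In HF/HF mice 1 value of 54.4% stood below the next lowest of 86.3% at chr11:3093432 in Sfi1. Also in HF/HF mice, 1 value of 27.9% stood above 15.6% at the nuclear mt-Co1 copy chr2:22444220, and 1 of 28.1% above 16.1% at chrX:166435516 in Mid1. In LF/LF mice 1 value of 78.0% stood below 84.2% at chr10:71091542, 1 of 86.3% above 73.8% at chr12:20240095, 1 of 13.1% below 19.8% at the chromosome 18 site 68851808, and 1 of 22.9% above 10.3% at chr2:39388486, where 9 mice had a value. In LF/HF mice 1 value of 4.57% stood below 5.66% at chrM:6390, 1 of 22.1% below 43% at chrX:166435792 and 1 of 28.7% below 54.4% at chrX:166436024, both in Mid1. In HF/LF mice 1 value of 94.1% stood above 82.8% at chr4:88022252 in BC057079. No interaction of both diets passed an FDR of 5% at any site by the linear model.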

How the results depend on the processing

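No site passed an FDR of 5% by Student's or Welch's test, the quasi-binomial model or limma. The exact Wilcoxon test gave none either, but with 10 against 10 mice its p-values are too coarse for an FDR over so many cytosines, so that its count says nothing. The smallest FDR of a site was 0.0583, for post-weaning diet in offspring of LF fed dams with a minimum of 30 reads, where by construction only 896 cytosines were tested. The percent of sites at an unadjusted p below 0.05 moved by more than 1.5 times under limma on log2 ratios, to 3.97% for maternal diet in offspring fed LF, 3.17% for post-weaning diet in offspring of LF fed dams and 2.58% in offspring of HF fed dams, and the cause was not tested. Without the 7 deep and low loci, an alternative chosen after seeing the data, it was 5.58% in the comparison of maternal diet in offspring fed LF and 5.58% in that of post-weaning diet in offspring of LF fed dams, fewer because these loci held most calls. Leaving out 1 mouse at a time, also added after seeing the data, gave 2.18% to 4.96% for maternal diet in offspring fed HF (2.18% without HF/HF replicate 2), 9.33% to 17.5% in offspring fed LF, 14.5% to 19.6% for post-weaning diet in offspring of LF fed dams and 3.38% to 5.78% in offspring of HF fed dams. Of 385 alternative values of 55 named differences, 376 kept direction and side of the threshold and 9 near 0 reversed. With the quasi-binomial model these were chr11:3093432 (-0.26 points), chr2:98502952 (-0.047) and chr2:98506661 (-0.049) for post-weaning diet in offspring of LF fed dams, chr16:11144188 (-0.24) for maternal diet in offspring fed HF, chr5:147072764 (-0.59, and -0.53 with the read covariate) for post-weaning diet in offspring of HF fed dams, and chrM:6390 (0.070, 0.068 with the covariate and 0.0036 on limma's log2 scale) for maternal diet in offspring fed LF. The causes were not tested. By the study's methods males of each cage were divided between the post-weaning diets, so the groups compared for that diet may share litters. No paired analysis was possible because the labels carry no litter or replicate number that pairs mice across groups. Copies placed together limit what a level means at sites with many places in the genome.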
